A study of Mus musculus with 6 samples.

Results

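Serine synthesis and folate one-carbon metabolism are represented here by 10 enzyme genes out of the 54532 genes of the deposited table, each found by its gene symbol. They were chosen by gene name from 2 connected pathways after earlier results of the same knockout-against-control comparison were known, and the set was proposed for its values in that comparison. The differences of the 10 genes between the groups are therefore given as descriptions, without p-values. Poly(A)-selected RNA was sequenced from pancreatic islets of mice aged 7 weeks. Control mice (3 libraries) had the genotype Ythdc1flox/flox, and knockout mice (bKO, 3 libraries) had the genotype Ythdc1-βKO, a deletion of the floxed gene directed to beta cells. Ythdc1 encodes a nuclear reader of N6-methyladenosine (m6A), a common base modification of mRNA. The labels do not name the Cre driver, and other islet cells and cells of the surrounding tissue remain in these libraries.

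Recovered library totals ran from 16863329 to 18240339 reads. The targeted gene (Ythdc1, chromosome 5, 86804221 to 86836659, build GRCm38) had 5.76, 6.46 and 6.18 FPKM in control and 3.81, 3.79 and 3.87 in bKO, so that it fell by 0.56 in log2(FPKM + 1) units (SE 0.058, limma adjusted p = 0.0014). FPKM are fragments per kilobase of gene length, scaled between libraries by the authors. That scaling was proportional to size factors, the median over genes of a library's reads relative to the mean of all libraries, and not to read totals. The size factors were 0.9235 to 0.9882 in control and 1.0395 to 1.1014 in bKO. In 2 of the bKO libraries (replicates 2 and 3) a free-text label gives a Ythdc name that ends in the replicate number. The genotype label was followed here, and Ythdc1 was below every control library in all 3 bKO libraries. Of 9 beta-cell markers, 6 fell and 1 rose, and the list took 23.6% to 25.3% of reads in control and 17.1% to 18.1% in bKO. Under quantile normalization 4 of these markers fell and 2 rose, with a median log2 difference of -0.19 in place of -0.48. In bulk islets, fewer cells of a type and less RNA per cell cannot be told apart.

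Serine is made from the glycolytic intermediate 3-phosphoglycerate in the cytosol by PHGDH, PSAT1 and PSPH acting in that order. Serine hydroxymethyltransferase then moves a carbon from serine to tetrahydrofolate, giving glycine, and parallel sets of folate enzymes in mitochondria and cytosol oxidise that carbon to formate or use it for purine, thymidylate and methionine synthesis. The serine enzymes and several mitochondrial folate enzymes are known transcriptional targets of ATF4, the effector of the integrated stress response.

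All 3 serine synthesis mRNAs were more abundant in bKO islets, as were those of 3 of the 4 mitochondrial folate enzymes (Shmt2, Mthfd2 and Aldh1l2). The fourth, Mthfd1l, was at about the same level in both groups. The cytosolic enzymes did not move together: Shmt1 was higher in bKO, Mthfd1 was lower, and Aldh1l1 had too few reads to compare. In the authors' scaling, the summed FPKM of the serine synthesis genes in bKO was 2.62 times the control mean. It was 1.52 times for the mitochondrial and 0.836 times for the cytosolic folate genes.

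**Figure D1:**
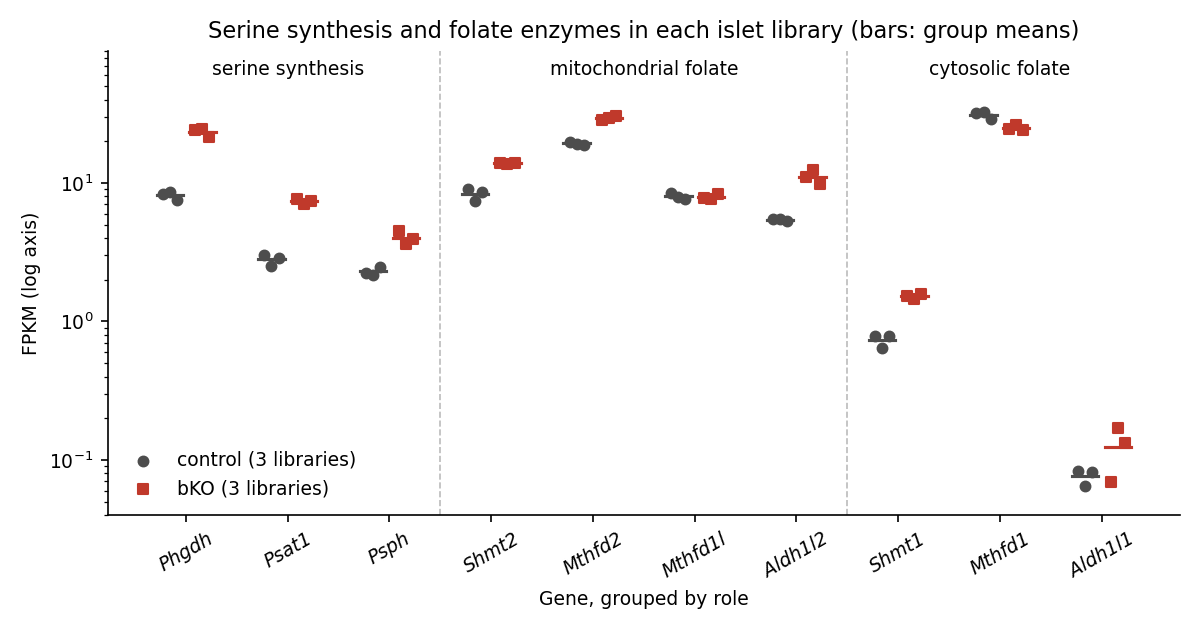
FPKM of the 10 enzyme genes (vertical log axis) in each of the 3 control libraries (grey circles) and 3 bKO libraries (red squares), with short bars at the group means and genes ordered by role along the horizontal axis. The groups are apart for all genes except Mthfd1l and Aldh1l1, and Mthfd1 is the gene with lower values in bKO.

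Of the 10 genes, 9 had at least 0.5 FPKM in at least 3 libraries and entered the limma fit, which covered 15717 genes. In that fit 7 of the 9 passed an adjusted p of 0.05 as higher in bKO and 1 as lower, where over all tested genes 8.96% were called higher, 11.4% lower and 20.3% in either direction. The groups did not overlap for 8 of the 9 genes, as for 40.1% of all tested genes. Nothing is read from these counts, since the same comparison was known when the genes were chosen. The median log2 difference of the 9 genes was 0.60, beside -0.01 for all tested genes. When libraries were scaled by their totals, the median of all genes moved to 0.13, the calls over all genes went from 1408 higher and 1784 lower (44.1% higher) to 3702 and 737 (83.4% higher), and of the 9 genes 7 were called higher and 0 lower.

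PHGDH, the first and committed enzyme of serine synthesis, had the largest difference of the set. Phgdh (ENSMUSG00000053398, chromosome 3, 98313170 to 98339990, minus strand) was at 8.32, 8.59 and 7.55 FPKM in control and at 24.0, 24.6 and 21.5 in bKO. The lowest bKO library was far above the highest control library, and the bKO mean was 2.86 times the control mean. The log2(FPKM + 1) difference was 1.41 (SE 0.069), the 63rd highest of the 15717 tested genes, from 1005 reads in control and 3238 in bKO.

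PSAT1, the aminotransferase of the middle step, followed closely. Psat1 (ENSMUSG00000024640, chromosome 19, 15904678 to 15947337, minus strand) was at 3.01, 2.5 and 2.89 FPKM in control and at 7.64, 7.02 and 7.44 in bKO. Every bKO library was above every control library, with a log2 difference of 1.14 (SE 0.071) and a ratio of means of 2.63. PSPH, the phosphatase that releases serine, differed by less. Psph (ENSMUSG00000029446, chromosome 5, 129765558 to 129787449, minus strand) was at 2.24, 2.16 and 2.49 FPKM in control and at 4.51, 3.63 and 3.92 in bKO, a log2 difference of 0.60 (SE 0.086) and a ratio of means of 1.75. The groups were apart here too. Psph shares 452 bases with Cct6a on the opposite strand, whose mean was 27.5 FPKM in control against 26.3 in bKO. Whether counting used strand is not stated, so reads from such overlaps cannot be told apart.

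The 3 genes did not keep the same proportions. The ratio of Phgdh to Psat1 FPKM ran from 2.61 to 3.44 in control and from 2.88 to 3.50 in bKO, so the groups overlapped. That of Psat1 to Psph ran from 1.16 to 1.34 in control and from 1.69 to 1.93 in bKO, with no overlap. In summed FPKM the pathway was at 13.6, 13.2 and 12.9 in control and at 36.1, 35.2 and 32.8 in bKO.

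The promoters of Phgdh and Psat1, the pair with the largest differences in the set, and of Mthfd2, the most abundant mitochondrial member, are shown over the 250 bases before the RefSeq start site (build GRCm38.p6). Capitals mark CCAAT boxes (CCAAT, or ATTGG on the other strand) and, in Phgdh, a match to the antioxidant response core TGACNNNGC on the other strand.
Phgdh (chr3:98339970-98340219, minus strand): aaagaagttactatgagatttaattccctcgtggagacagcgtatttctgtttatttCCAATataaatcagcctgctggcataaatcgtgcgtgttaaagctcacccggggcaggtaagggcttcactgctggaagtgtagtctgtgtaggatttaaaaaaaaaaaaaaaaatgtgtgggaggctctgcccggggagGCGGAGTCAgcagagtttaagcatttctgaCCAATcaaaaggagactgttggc
Psat1 (chr19:15925060-15925309, minus strand): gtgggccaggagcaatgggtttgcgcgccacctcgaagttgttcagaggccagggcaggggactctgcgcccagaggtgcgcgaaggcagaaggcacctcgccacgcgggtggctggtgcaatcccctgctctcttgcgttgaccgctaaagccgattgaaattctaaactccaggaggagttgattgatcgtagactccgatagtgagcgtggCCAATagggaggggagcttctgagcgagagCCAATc
Mthfd2 (chr6:83317605-83317854, minus strand): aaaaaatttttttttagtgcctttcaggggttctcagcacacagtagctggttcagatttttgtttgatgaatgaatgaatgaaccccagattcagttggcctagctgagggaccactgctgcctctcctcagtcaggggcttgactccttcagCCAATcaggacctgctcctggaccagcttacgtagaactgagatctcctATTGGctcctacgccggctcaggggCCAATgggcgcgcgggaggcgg

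RefSeq windows of 300 bases, from 250 before to 50 after the start site, were found for 9 of the 10 genes, all but Aldh1l2. CCAAT, the box bound by NF-Y, was found on either strand in 7 of the 9 genes and in 37.4% of the 32851 windows of all genes. The 7 are Mthfd2, Phgdh, Psat1, Psph and Shmt1, which were higher in bKO, Mthfd1, which was lower, and Aldh1l1, too low to compare. Shmt2, which was higher, and Mthfd1l, which was level, had no match. A part of the box in the differences was not tested. A gene was counted where any of its windows matched, whereas the shares over all genes are per window. Psat1 has 2 windows, and its CCAAT boxes lie in the one shown, with 1 more just past the start site. TGACNNNGC matched in Phgdh and Psph and in 12.4% of all windows. GGGCGG, the GC box, matched in 6 of the 9 genes, in Psat1 only in the window not shown, and in 35.7% of all windows. CACGTG, the E-box, matched in 0 of the 9 and in 7.15% of all windows, and TGATGNAA, the composite site of ATF4 and C/EBP factors, in 0 of the 9 and in 3.97%. In these genes no match of a motif overlapped a match of another, and a match is only a run of letters.

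SHMT2, which takes the carbon from serine inside mitochondria, had more mRNA in bKO. Shmt2 (ENSMUSG00000025403, chromosome 10, 127517123 to 127522444, minus strand) was at 9.01, 7.45 and 8.60 FPKM in control and at 13.9, 13.7 and 14.0 in bKO, a log2 difference of 0.67 (SE 0.068). The bKO libraries were nearly equal (coefficient of variation 0.91%, against 9.68% in control) and all above the control libraries. MTHFD2, the mitochondrial dehydrogenase and cyclohydrolase best known from growing and stressed cells, was the most abundant member in bKO. Mthfd2 (ENSMUSG00000005667, chromosome 6, 83305691 to 83325908, minus strand) was at 19.7, 19.2 and 18.9 FPKM in control and at 28.5, 29.2 and 30.4 in bKO, a log2 difference of 0.58 (SE 0.041). The groups were far apart relative to their spread, with ratios of means of 1.66 for Shmt2 and 1.52 for Mthfd2.

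ALDH1L2, the mitochondrial enzyme that oxidises 10-formyltetrahydrofolate with production of NADPH, differed most among the folate genes on the log2(FPKM + 1) scale. Aldh1l2 (ENSMUSG00000020256, chromosome 10, 83487450 to 83534140, minus strand) was at 5.47, 5.45 and 5.33 FPKM in control and at 11.1, 12.3 and 9.88 in bKO. The control libraries were nearly equal and all bKO libraries were above them, with a log2 difference of 0.91 (SE 0.077) and a ratio of means of 2.05. Over 1056 bases it overlaps D10Wsu102e on the opposite strand, a gene with 1391 reads in control and 3950 in bKO. Its part in the Aldh1l2 value was not tested.

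MTHFD1L, the mitochondrial synthetase that releases formate for export to the cytosol, stood apart from the other mitochondrial members. Mthfd1l (ENSMUSG00000040675, chromosome 10, 3973118 to 4167081, plus strand) was at 8.46, 7.96 and 7.64 FPKM in control and at 7.77, 7.66 and 8.28 in bKO. The groups overlapped, and the log2 difference was -0.02 (SE 0.056), turning to 0.14 when libraries were scaled by their totals, where all genes had a median of 0.13.

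SHMT1, the cytosolic counterpart of SHMT2, was a low transcript that was more abundant in bKO. Shmt1 (ENSMUSG00000020534, chromosome 11, 60788104 to 60811718, minus strand) was at 0.784, 0.643 and 0.779 FPKM in control and at 1.52, 1.46 and 1.57 in bKO. The groups did not overlap, with 43 to 49 reads per control library and 103 to 113 per bKO library. Its log2(FPKM + 1) difference of 0.54 (SE 0.087) understates a ratio of means of 2.06, and voom on the recovered reads gave 1.07. At its end Shmt1 shares 184 bases with Smcr8 on the opposite strand, whose mean was 7.93 FPKM in control against 9.59 in bKO.

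MTHFD1, the cytosolic enzyme that carries the dehydrogenase, cyclohydrolase and synthetase activities in 1 protein, was the most abundant member in control islets. Mthfd1 (ENSMUSG00000021048, chromosome 12, 76255298 to 76319803, plus strand) was at 32.1, 32.3 and 28.9 FPKM in control and at 24.7, 26.3 and 24.2 in bKO. Every bKO library was below every control library, with a log2 difference of -0.30 (SE 0.057) and a ratio of means of 0.805. Scaled by library totals, the difference was -0.13, no longer past the threshold of the fit. ALDH1L1, the cytosolic counterpart of ALDH1L2, had very few reads. Aldh1l1 (ENSMUSG00000030088, chromosome 6, 90486427 to 90600203, plus strand) had 6, 5 and 6 reads in the control libraries and 6, 14 and 11 in the bKO libraries. The groups overlapped, and the summed reads were 17 (95% Poisson interval 9.90 to 27.2) and 31 (21.1 to 44.0), so a difference was not detectable at this depth.

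**Figure D2:**
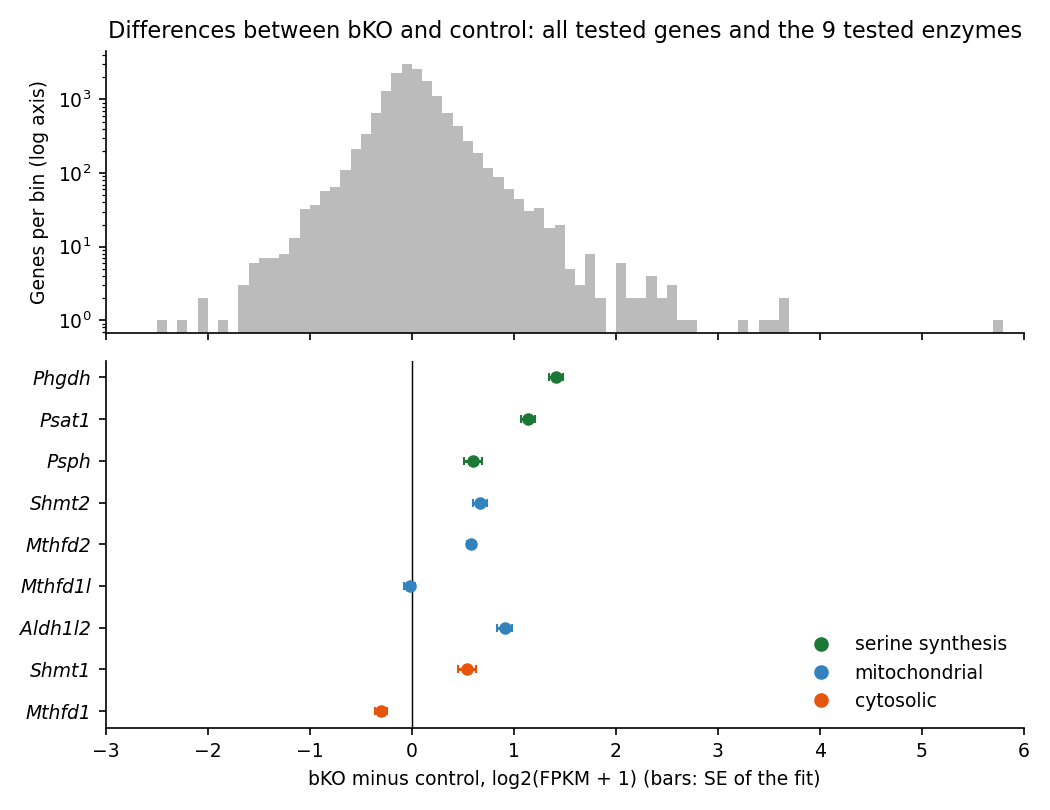
Upper panel: number of tested genes (log axis) by log2(FPKM + 1) difference, bKO minus control, for all 15717 genes. Lower panel: the 9 tested enzyme genes on the same horizontal axis, coloured by role, with the SE of the fit as bars; Phgdh, at 1.41, and Psat1, at 1.14, lie farthest to the right, Mthfd1l sits at -0.02, and Mthfd1 is left of 0 at -0.30.

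Levels per length put Mthfd1 first in control (31.1 ± 1.9 FPKM, SD, n = 3), then Mthfd2 (19.3 ± 0.41), then Shmt2, Phgdh and Mthfd1l, whose library ranges overlapped at means of 8.35, 8.15 and 8.02. Aldh1l2, Psat1, Psph, Shmt1 and Aldh1l1 came after them in that order, each with a range below that of the gene before. In bKO the order was Mthfd2 (29.4 ± 0.93 FPKM), then Mthfd1 (25.1 ± 1.1) and Phgdh (23.3 ± 1.7), whose ranges overlapped, then Shmt2 and Aldh1l2. Mthfd1l was the fifth in control and the sixth in bKO, with a range just above that of Psat1.

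Mitochondrial and cytosolic folate enzymes were also compared within each library, which removes the scaling between libraries. Of the summed FPKM of the 7 folate genes, the 4 mitochondrial genes made up 56.4%, 54.8% and 57.6% in control and 70.0%, 69.2% and 70.7% in bKO. In the authors' scaling between libraries both sides of the sum differed. The mitochondrial sum was 41.1 ± 1.4 FPKM in control and 62.2 ± 0.89 in bKO. The cytosolic sum was 31.9 ± 1.9 and 26.7 ± 1.1 (SD, n = 3 per group). The cytosolic sum was nearly all Mthfd1, which made up 97.4% of it in control and 93.8% in bKO. The log2 difference of Mthfd1, -0.30, was -0.13 and not past the threshold when libraries were scaled by their totals. With Mthfd1 left out, the mitochondrial share was 98.1% ± 0.18 in control and 97.4% ± 0.074 in bKO, slightly lower in bKO.

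**Figure D3:**
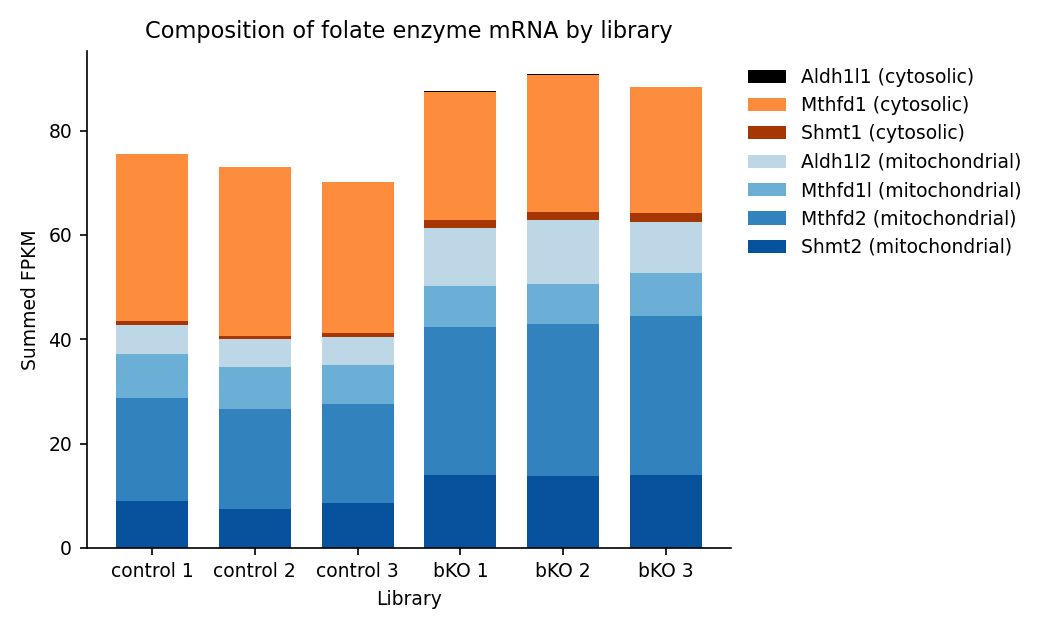
Stacked bars of FPKM for the 7 folate enzyme genes in each of the 6 libraries (vertical axis from 0, blue shades mitochondrial, orange and brown cytosolic, black Aldh1l1, which is barely visible). The blue part is 54.8% to 57.6% of each control bar and 69.2% to 70.7% of each bKO bar, while the orange Mthfd1 part is smaller in bKO.

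Counterparts differed in direction when set against each other as log2 ratios of FPKM with 0.1 added. The ratio of Mthfd2 to Mthfd1 was -0.70, -0.75 and -0.61 in control and 0.21, 0.15 and 0.33 in bKO, so Mthfd1 was the more abundant of the pair in every control library and Mthfd2 in every bKO library. For Mthfd1l to Mthfd1 the mean ratio was -1.94 in control and -1.65 in bKO, and here Mthfd1l itself was level. For Aldh1l2 to Aldh1l1 the mean ratio was 4.97 in control and 5.66 in bKO, resting on very few Aldh1l1 reads. Shmt2 to Shmt1 went the other way, at 3.37, 3.35 and 3.31 in control and 3.11, 3.15 and 3.07 in bKO, both genes being higher and Shmt1 by the larger factor. That last difference, -0.23, turned to 0.13 with 1 added in place of 0.1, so its sign depends on how the low Shmt1 values are treated.

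Neighbouring genes were taken from 7 lists of enzymes, carriers and regulators, drawn up with earlier results of these data known. Together they hold 79 genes, of which 70 were tested, 19 rose and 8 fell. That is 27.1% higher and 11.4% lower, beside 8.96% and 11.4% over all tested genes. Of these 19 rises 12 belong to ATF4 and its targets, and the other 55 tested genes had 7 rises (12.7%) and 8 falls (14.5%). Scaled by library totals, 29 rose and 4 fell.

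Among 7 tested other folate enzymes 1 rose and 0 fell, with a median of -0.03. Of 11 tested carriers of folate, serine and glycine 2 rose and 0 fell, with a median of 0.11. Slc1a4, which carries serine, alanine and other neutral amino acids, rose from 6.04, 4.45 and 5.38 FPKM to 10.6, 11.3 and 11.4, a log2 difference of 0.95 (SE 0.095, limma adjusted p = 0.0013). Slc6a9, a glycine transporter, rose from 0.734 ± 0.20 to 1.40 ± 0.024 FPKM (limma adjusted p = 0.025), and its call was lost in 8 of 14 alternatives, with adjusted p up to 0.073 there. Under total scaling 6 of the 11 carriers were called higher.

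Glycine cleavage and breakdown of serine or glycine had 8 tested genes, of which 1 rose and 0 fell, with a median of -0.13. Amt, the aminomethyltransferase of the glycine cleavage system, rose from a mean of 8.20 ± 0.68 FPKM to one of 11.6 ± 0.61, by 0.46 on the log2 scale (limma adjusted p = 0.0055). All 3 bKO libraries were above all control libraries. With total scaling 3 of 9 tested genes of this list were called higher, and the median was 0.05.

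Methionine cycle and transsulfuration genes moved in both directions, 4 lower and 2 higher of 10 tested. Cbs, cystathionine beta-synthase, which condenses serine with homocysteine, fell from 19.5 ± 2.0 to 9.52 ± 0.45 FPKM, a log2 difference of -0.96 (limma adjusted p = 0.00062). Ahcyl1, a relative of the enzyme that hydrolyses S-adenosylhomocysteine, fell from 41.1 ± 0.55 to 31.8 ± 1.9 FPKM, a log2 difference of -0.36 (limma adjusted p = 0.0038). Mat2a, the S-adenosylmethionine synthetase of most tissues and itself an m6A-controlled transcript, rose from 12.8, 11.9 and 14.0 FPKM to 18.7, 16.9 and 18.1, by 0.45 on the log2 scale (limma adjusted p = 0.0057). Mat1a, the synthetase best known from liver, fell from 26.9 ± 0.090 to 22.6 ± 1.2 FPKM (limma adjusted p = 0.013), a call lost under total scaling (-0.07) and quantile normalization (-0.17). The other calls, named after their values were seen, were a fall of Ahcy (-0.56, limma adjusted p = 0.014) and a rise of Cth (0.59, limma adjusted p = 0.022). That of Cth, a gene of low level, was lost under quantile normalization (0.45) and without control replicate 1 (0.55). Cth was at 0.156, 0.291 and 0.243 FPKM in control and at 1.12, 0.652 and 0.814 in bKO. It passed the filter of the fit only through bKO, so no support is drawn from its call. Under total scaling the list had 4 higher and 3 lower.

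Purine synthesis, which takes in formyl groups from folate, had 3 falls and 0 rises among 11 tested genes. Ppat, the amidotransferase of the first committed step, fell from 24.4, 16.8 and 22.1 FPKM to 13.1, 12.4 and 12.2, a log2 difference of -0.69 (limma adjusted p = 0.010). Gart and Atic, the enzymes that use formyltetrahydrofolate, had control means of 6.73 ± 0.52 and 5.64 ± 0.15 FPKM and bKO means of 7.13 ± 0.64 and 5.31 ± 0.39, with overlapping groups (limma adjusted p = 0.56 and 0.44). They were singled out for that role after their values were seen. Impdh1 was at -0.25 (limma adjusted p = 0.0085) and Gmps at -0.21 (limma adjusted p = 0.027), and both calls were lost under total scaling, at -0.08 and -0.05. That of Gmps was also lost without any 1 of the 6 libraries, with log2 fold changes of -0.23 to -0.19. Of 8 tested genes that use serine for lipids and selenocysteine or charge tRNA with it, 1 rose and 1 fell. Sars, cytosolic seryl-tRNA synthetase, rose from 38.5 ± 0.13 to 46.2 ± 3.6 FPKM (limma adjusted p = 0.021), a call lost without control replicate 1 (0.25) or control replicate 2 (0.26). Sepsecs, which makes selenocysteine on its tRNA, fell by 0.29 on the log2 scale (limma adjusted p = 0.0065), a call lost under total scaling (-0.12).

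**Figure D4:**
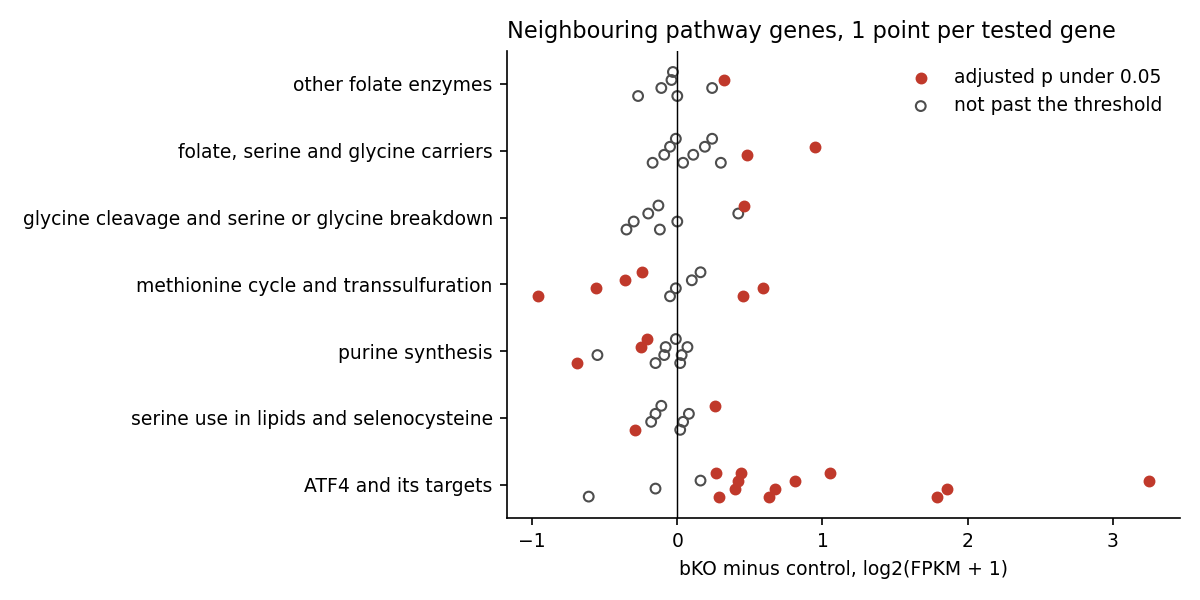
Log2(FPKM + 1) differences, bKO minus control (horizontal axis), for the 70 tested genes of the 7 neighbouring lists, 1 point per gene; filled red points passed an adjusted p of 0.05 and open points did not, and the vertical position within a list only separates points. ATF4 and its targets hold 12 filled points, all right of 0, while the methionine cycle list has 4 filled points left of 0 and 2 right of it.

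ATF4 and its known targets had 12 rises and 0 falls among 15 tested genes, with a median of 0.44. Total scaling gave 13 rises and a median of 0.61, and voom 13 rises and 1 fall. Nupr1, a stress-induced chromatin-associated regulator, rose by 3.25, Chac1, which degrades glutathione, by 1.86, Trib3, a pseudokinase that dampens ATF4 signalling, by 1.79 and Ddit3, the transcription factor CHOP, by 1.05 on the log2 scale, with limma adjusted p of 1.2e-05, 0.00015, 0.0003 and 0.00024. Atf4 itself, taken up after its values were seen, rose from 112, 118 and 104 FPKM to 134, 147 and 129, by 0.29 on the log2 scale (limma adjusted p = 0.021), a call lost with no filter (0.29) and without control replicate 1 (0.30), bKO replicate 1 (0.30) or bKO replicate 2 (0.24). Ddit4, also singled out, was at -0.61 (limma adjusted p = 0.060) with overlapping groups, and was called lower by voom and without control replicate 3. The differences of Phgdh and Psat1, 1.41 and 1.14, lie above the list median of 0.44. They fall between those of Ddit3 and Trib3, which were named for their small adjusted p. A part of ATF4 in the enzyme differences was not tested.

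TGATGNAA was found in the 300-base window of 7 of the 14 genes of the ATF4 list that have one, against 0 of the 9 windowed enzyme genes. No such letters in this window says nothing about sites elsewhere in a gene. Among the tested genes of the list that hold a match, the 3 with the largest log2(FPKM + 1) rises are shown with 30 bases of context, the 8 letters of the match in capitals.
Nupr1 (chr7:126625562-126625591, plus strand): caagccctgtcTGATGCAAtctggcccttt
Chac1 (chr2:119351038-119351067, minus strand): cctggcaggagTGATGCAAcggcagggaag
Trib3 (chr2:152344028-152344057, plus strand): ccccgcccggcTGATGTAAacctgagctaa

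Markers of other cells and states moved beside the enzymes, and their part in the enzyme values was not tested. Of 12 proliferation markers 7 fell and 0 rose, and their summed FPKM was 44.5 to 50.5 in control and 32.3 to 34.6 in bKO. Macrophage markers fell in 4 of 9 tested with 0 rises (114 to 129 and 68.2 to 85.4 FPKM), and endothelial markers rose in 4 of 9 with 0 falls (154 to 181 and 198 to 205 FPKM). Acinar markers rose in 2 of 16 with 0 falls, with overlapping sums of 103 to 274 and 175 to 245 FPKM. Delta- and PP-cell markers rose in 2 of 6, alpha-cell markers in 2 of 7, Schwann cell markers in 3 of 6 and mesenchymal markers in 1 of 8, with 0 falls in each, and 0 of 4 duct markers were called. The 3 called Schwann cell genes, Cdh19, Ngfr and Foxd3, were under 0.5 FPKM in every control library. They entered the fit only through bKO, so nothing is read from their calls. Birc5, among the proliferation markers called lower, was under 0.5 FPKM in every bKO library and entered only through control. Under total scaling 7 of 9 endothelial, 3 of 4 duct, 4 of 6 delta- and PP-cell and 4 of 6 Schwann cell markers were called higher, and the proliferation, macrophage and beta-cell lists had 6, 3 and 6 falls. Under quantile normalization 1 of 6 Schwann cell markers was called higher. None of the marker genes was at 0 in every library.

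The genes nearest to Phgdh in their profile over the 6 libraries were Tnrc6c, Gpt and Rab39, among 11229 protein-coding genes with a mean of at least 1 FPKM. Their root mean square distances were 0.0834, 0.108 and 0.109 in log2(FPKM + 1) after subtraction of each control mean. Tnrc6c was at 8.63, 8.77 and 8.96 FPKM in control and differed by 1.43 on the log2 scale, beside 1.41 for Phgdh. For Mthfd1, the member with the largest fall, the nearest were Asah1, Cdc42 and Guk1, at distances of 0.0282, 0.0284 and 0.0299. This distance takes in the difference between groups. Genes picked by it therefore differ by similar amounts, and nothing is read from that likeness.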

How the data were processed

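Per the labels, the authors aligned reads of 6 poly(A)-selected islet libraries to GRCm38 (HISAT2 2.0.5) and summed them over genes (featureCounts 1.5.0-p3). DESeq2 1.20.0 and CASAVA are named in the submitters' processing notes without a role. How strand and multi-mapping reads were handled, and which annotation release served, is not given in the sources used here. Deposited values are FPKM. Multiplied by gene length and 1 factor per library, 100% of the values above 0 came within 0.01 of a whole read. These factors were proportional to the size factors of the recovered reads. No library repeated another.

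limma 3.58.1 (R 4.3.3, mean-variance trend) was fitted to log2(FPKM + 1) of 15717 genes with at least 0.5 FPKM in at least 3 libraries, with Benjamini-Hochberg adjustment over all of them and a threshold of 0.05. The fit was also run on simulated reads, with all changed genes raised and libraries scaled by their totals. That run does not bear on the authors' scaling or on falls. Fold changes in log2(FPKM + 1) understate low genes. An alternative, voom on recovered reads, called 2134 genes higher and 2124 lower. Other alternatives changed the scaling, pseudocount, filter, replicate number or libraries. Intervals from reads cover counting error only.

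The enzymes, lists and tests were chosen with earlier results of these data known. Named by rule are the 10 enzymes, Ythdc1, up to 4 called genes per list with the smallest adjusted p, and the 3 genes nearest in profile to the members with the largest rise and fall. Genes that overlap a member are also named. Ahcy, Cth, Atf4, Ddit4, Gart, Atic, Slc7a11, Sds and Folr2 were added after their values were seen. So were the markers Birc5, Cdh19, Ngfr and Foxd3, for how they entered the fit. The values of 1 called list gene are not reported here. Promoters come from RefSeq (GRCm38.p6). Python 3.11.15, pandas 2.3.3 and scipy 1.17.1 were used for the rest.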

Additional observations from a re-analysis of the deposited data

How the results depend on the processing

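Over 14 alternatives, Phgdh, Psat1, Psph, Shmt2, Mthfd2, Aldh1l2 and Shmt1 were past the threshold as higher in bKO in all 14 and Mthfd1l in 0, while Mthfd1 was past it as lower in 13, all but total scaling, under which 0 members were called lower. Scaled by library totals, 3702 genes were called higher and 737 lower, and of the pathway list genes 29 and 4. voom on recovered reads called 2134 genes higher. Replicate numbers did not pair the libraries: same-numbered control and bKO libraries had deviations correlated at -0.052, -0.014 and -0.073. With the replicate block, 925 genes were called higher and 1152 lower, and the 9 tested members kept their side of the threshold. Of the other genes named with a call, Slc6a9, Gmps, Ahcy and Cth lost it. In this fit 1 rather than 3 Schwann cell markers and 2 rather than 4 endothelial markers rose. Alpha-cell and acinar rises went from 2 to 1 each, and delta- and PP-cell rises from 2 to 3. Proliferation falls went from 7 to 5. The beta-cell list had 4 falls and 0 rises, in place of 6 and 1. Leaving out 1 library gave 762 to 1227 higher and 1039 to 1608 lower calls: 886 and 1039 without control replicate 1, 762 and 1068 without bKO replicate 1, 827 higher without bKO replicate 2 and 826 higher without bKO replicate 3. These fits test fewer libraries. The log2 ratio of Shmt2 to Shmt1, -0.23, was 0.13 with a pseudocount of 1 and -0.31 with one of 0.01, as its construction from a low gene gives. Depth limits Aldh1l1, with 5 to 14 reads per library, and to a lesser degree Shmt1.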

Other observations

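GGACT, the most common letters around m6A in mouse mRNA, was counted in the longest protein-coding GENCODE vM21 transcript of each gene. This counts letters and measures no methylation. It occurred 0 times in Shmt2 and in Mthfd2 and 0.528 times per kilobase in Phgdh, with a median of 1.05 and quartiles of 0.642 and 1.52 over 12440 tested genes. Shmt1, Psph and Mthfd1l held 1.75, 1.73 and 1.63 per kilobase, above the upper quartile, and Psat1, Aldh1l2 and Mthfd1 held 0.764, 0.830 and 0.617. Of the members higher in bKO, Shmt1 and Psph lay above the median and Phgdh, Psat1, Shmt2, Mthfd2 and Aldh1l2 below it. A link between these counts and the group differences was not tested.

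Of the 79 genes on the neighbouring lists, 70 were tested, and the others, all of low level, fell below the filter. Slc7a11, the cystine importer, was listed at 0.0134, 0.0333 and 0.0266 FPKM in control and at 0.494, 0.420 and 0.501 in bKO. Sds, a serine dehydratase, was at 0.220, 0.240 and 0.109 FPKM in control and at 0.492, 0.489 and 0.702 in bKO. Folr2, a folate receptor, had means of 0.0517 FPKM in control and 0.417 in bKO. In Slc7a11, Sds and Folr2 the groups did not overlap, and these genes were picked out after their values were seen. In Mthfs, Ftcd, Sardh, Dmgdh, Pipox and Bhmt, also untested, the groups overlapped.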
